A study of Mus musculus with 6 samples.

Results

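Chemokines are small secreted proteins that attract leukocytes, and chemokine receptors are the G protein-coupled receptors through which leukocytes sense them. The genes described here were chosen by name from the gene table of an RNA sequencing study of mouse fat. They are the protein-coding genes named Ccl, Cxcl, Ccr or Cxcr with a number, together with Xcl1, Cx3cl1 and Cx3cr1. The rule found 61 of 54532 genes, 44 of them ligands and 17 receptors, with 55 distinct symbols because several ligands are annotated in more than 1 copy. RNA came from inguinal white adipose tissue, the subcutaneous depot of the groin, in Cdo1AKO mice, which lack Cdo1 in adipose tissue, and in Cdo1 flox/flox control mice, whose genotype is also labelled WT. Cdo1 encodes cysteine dioxygenase 1. All mice were put on a high-fat diet at 8 weeks of age and stayed on it for 15 weeks, and 3 libraries were sequenced per group. Which promoter drove the deletion is not given in the text used here. The labels do not say whether each library is from its own animal, so p-values reflect the spread among these libraries alone, which may be technical.

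Each chemokine is read by 1 or a few receptors, and the set of receptors on a leukocyte decides which tissues it enters. Homeostatic chemokines are made continuously: Ccl19 and Ccl21 draw T cells and dendritic cells that carry Ccr7 into lymph nodes, and Cxcl13 draws B cells that carry Cxcr5 into follicles. Inflammatory chemokines such as Ccl2, Ccl5 and Cxcl1 are induced by cytokines or tissue damage and recruit monocytes, effector T cells or neutrophils, and in obese fat they are best known for the recruitment of monocytes that become macrophages. The inguinal depot surrounds a lymph node, so a piece of this fat can contain lymphoid tissue. By these textbook roles the 61 genes were divided into 11 of lymph-node homing, 13 other homeostatic genes and 37 inflammatory genes.

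Libraries held 16275184 to 19205804 counts. Values below are read counts per 1000000 (CPM) on library sizes scaled with TMM factors, log2 fold changes are Cdo1AKO over control with their standard error (SE), and the test was edgeR's quasi-likelihood test with Benjamini-Hochberg adjustment over all 16623 genes tested. Cdo1 had 123, 391.6 and 134 CPM in Cdo1AKO 1 to 3, against 887, 432 and 631 CPM in control 1 to 3, and its difference did not pass (log2 fold change -1.59 ± 0.53, adjusted p = 0.416). The median CPM of 17 lymph node and B cell markers, none of them a chemokine or receptor, was 67.9, 0.386 and 72.3 in Cdo1AKO 1 to 3, against 0.0614, 105 and 58.7 in control 1 to 3. Cdo1AKO 2 and control 1 thus nearly lacked lymph node transcripts and stood apart from the other 4 libraries in these markers. Counts of Cdo1AKO 1 and 3 differed by a chi-square of 5.63 per gene, where sampling noise alone gives about 1, and those of Cdo1AKO 2 and each of the others in its group by 194 to 203. Those of control 2 and 3 differed by 23.0, and control 1 differed by 80.2 from control 2 and by 32.5 from control 3, so that over all genes control 1 stood apart less than Cdo1AKO 2. In bulk RNA, fewer cells of a type and less RNA per cell cannot be told apart. The adipocyte marker Adipoq had 1492 to 2801 CPM in Cdo1AKO and 2171 to 3077 CPM in control libraries and was thus high in every library.

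Of the 61 genes, 41 had enough counts to be tested, 5 of lymph-node homing, 8 other homeostatic and 28 inflammatory. In the 6 libraries, 0 of the 41 passed edgeR at adjusted p under 0.05, where 0.0% of all genes passed, and 3 had an unadjusted p under 0.05 (Cx3cl1, Ccr2 and Ccl17), against 10.4% of all genes. Limma-voom also called 0, with 2 at an unadjusted p under 0.05 against 9.91% of all genes. DESeq2 called 1, Cx3cl1, where it called 1.48% of all genes. The fold changes lay above 0 for 26 genes and below 0 for 15, with a median of 0.53 against 0.06 over all genes tested. By class the median was -0.12 for lymph-node homing, -0.14 for other homeostatic genes and 0.65 for inflammatory genes, of which 22 of 28 lay above 0. The homing median rests on 5 genes, ran from -0.59 without Cdo1AKO 1 to 2.24 without control 2 when single libraries were left out, and was 0.02 with library totals as the only scaling, 1.13 with limma-voom and 0.82 over 6 genes in the 4 libraries with lymph node transcripts. The inflammatory median stayed above 0 in every alternative, at 0.38 in those 4 libraries, where 16 of 28 genes lay above 0.

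**Figure D1:**
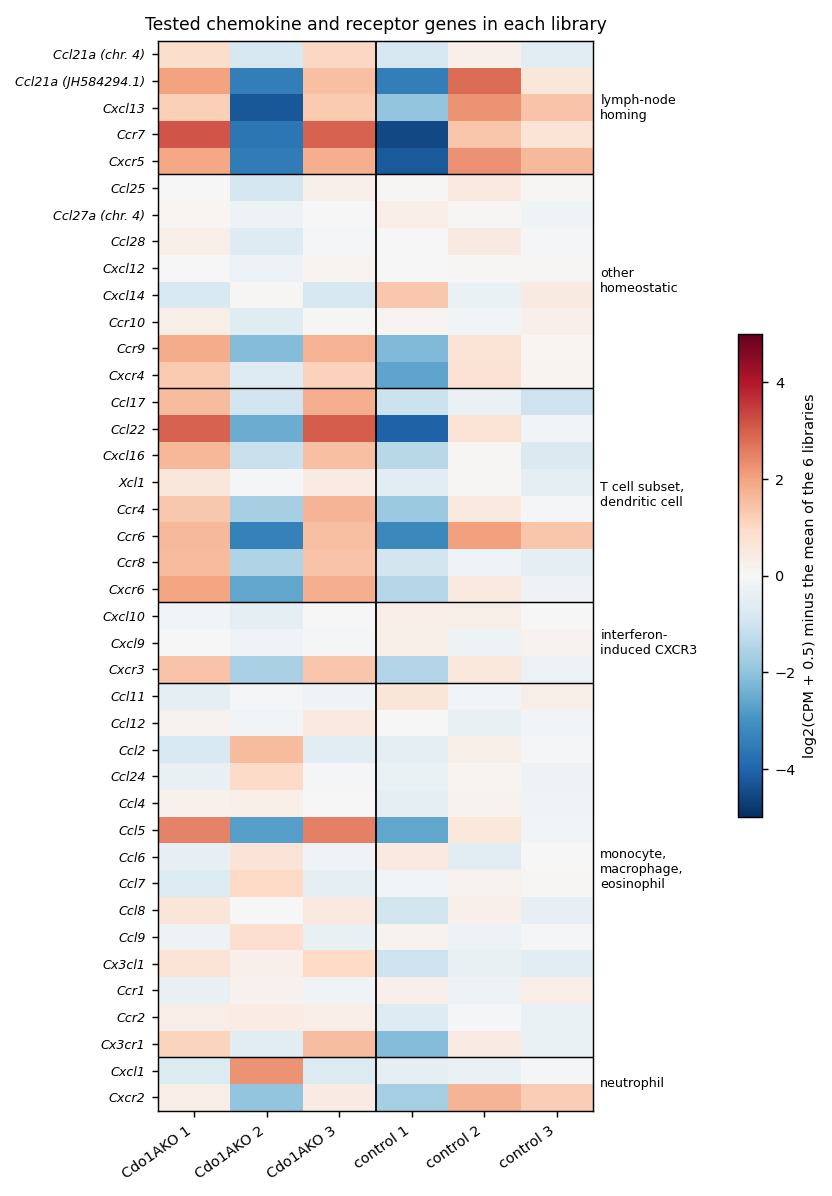
Level of 40 of the 41 tested genes (rows, by class and by the cells they recruit) in the 6 libraries (columns), as log2(CPM + 0.5) minus the gene's mean over the 6 libraries, red above and blue below that mean. Ccr7, Ccl22 and Ccl5 are dark red in Cdo1AKO 1 and 3 and blue in Cdo1AKO 2 and control 1, while Cxcl1 and Ccl2 are red in Cdo1AKO 2.

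Among the 4 libraries with lymph node transcripts, 2 per group, 14 of 42 tested chemokine and receptor genes were higher in Cdo1AKO by edgeR, against 7.65% of all genes higher, and 2 were lower, against 7.7% of all genes lower. These libraries were picked by marker levels in the same data, which left out the most divergent library of each group. The p-values do not account for that choice. Fits that left out each library in turn called 0 of the chemokine and receptor genes and 0 of all genes. The 14 were Ccr7 of the homing class, Ccr9 and Cxcr4 of the other homeostatic class, and Ccl5, Ccl17, Ccl22, Ccr2, Ccr4, Ccr8, Cx3cl1, Cx3cr1, Cxcl16, Cxcr3 and Cxcr6 of the inflammatory class. The 2 lower genes were Cxcl14 and Cxcr2. In a fit of all 6 libraries with a term for lymph node transcripts, Ccl22, Ccr7 and Cx3cl1 were higher, 3 of 41 against 2.26% of all genes, and Cxcl14 was lower, 1 of 41 against 1.87%. For each of the 16 genes called in the 4 libraries, that adjusted p was the smallest over the alternatives tried, and the largest ran from 0.937 to 0.986. In the 4 libraries, T cell and natural killer cell markers moved with the 14 higher genes. Their summed level was 1125 and 1146 CPM in Cdo1AKO 1 and 3, against 453 and 266 CPM in control 2 and 3. By edgeR 13 of 15 of them were higher there. The natural killer cell markers Klrb1c (adjusted p = 0.0818) and Ncr1 (adjusted p = 0.454) did not pass. In the libraries without lymph node transcripts that sum was 27.7 CPM in Cdo1AKO 2, against 28.7 CPM in control 1, and no marker of the list was at 0 in any library. Of the 14 genes, Ccl5, Ccr8, Cxcr3 and Cxcr6 were lower in Cdo1AKO 2 than in control 1, and the others were higher. Ccr2 had 30.6 CPM in Cdo1AKO 2, against 14.8 CPM in control 1, and Cx3cl1 had 8.04 CPM, against 3.01 CPM.

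**Figure D2:**
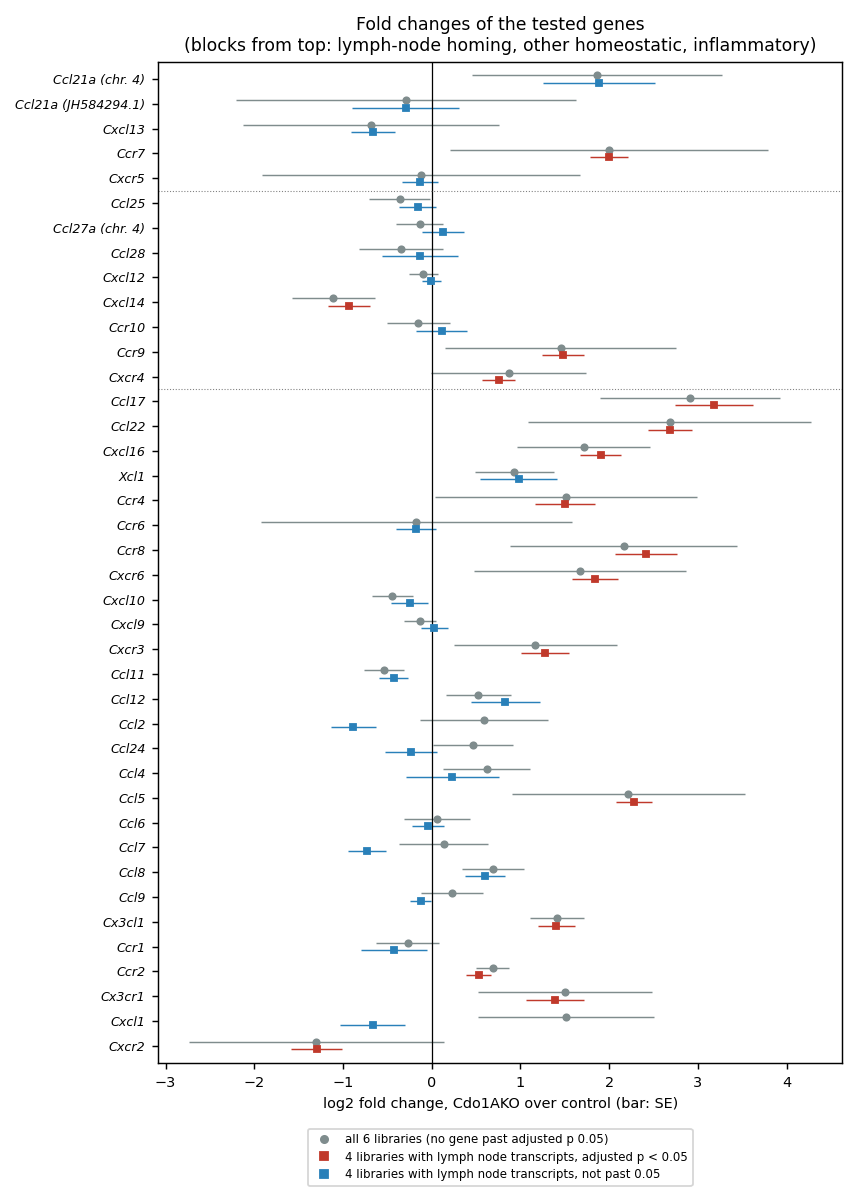
Log2 fold change of 40 of the 41 tested genes, Cdo1AKO over control, with its SE as a bar, from all 6 libraries (grey circles) and from the 4 libraries with lymph node transcripts (squares, red where adjusted p was under 0.05). SEs are wide in the 6 libraries, as for Ccr7 at 2.0 ± 1.80 and Ccl22 at 2.68 ± 1.59, and narrow in the 4 libraries, where the points of most T cell and dendritic cell genes lie at the same place and those of Ccl2, Ccl7 and Cxcl1 lie on the other side of 0.

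Of the lymph-node homing receptors, Ccr7 (mm10 chromosome 11, 99144196 to 99155077, minus strand), which brings naive T cells and mature dendritic cells into lymph nodes, had 149, 0.901 and 133 CPM in Cdo1AKO 1 to 3, against 0.245, 43.8 and 26.9 CPM in control 1 to 3. The libraries without lymph node transcripts were near 0 in both groups, and of the other 4 the Cdo1AKO libraries were higher. Its fold change did not pass edgeR in the 6 libraries (2.0 ± 1.80, adjusted p = 0.719) and passed in the 4 libraries (2.0 ± 0.21, adjusted p = 0.00432) as well as with the term for lymph node transcripts (1.99 ± 0.22, adjusted p = 0.0222). Cxcr5, the follicle receptor of B cells, had 34.6, 0.322 and 31.6 CPM in Cdo1AKO, against 0, 44.6 and 27.9 CPM in control libraries. The groups overlapped whether or not the libraries without lymph node transcripts were counted, with a log2 fold change of -0.12 ± 1.79 (adjusted p = 0.987 by edgeR) and, in the 4 libraries, of -0.13 ± 0.21 (adjusted p = 0.708). There were 4.30 and 4.22 counts of Ccr7 per count of Cxcr5 in Cdo1AKO 1 and 3, against 0.982 and 0.963 in control 2 and 3, so the receptors stood in another ratio in each group. Cxcr5 stood in a nearly constant ratio to B cell transcripts, at 32.2 and 28.9 counts per 1000 counts of the lymph node and B cell markers without Enpp2 in Cdo1AKO 1 and 3, against 27.6 and 30.0 in control 2 and 3. Enpp2 was left out of that sum because it was also high in the libraries that lacked the rest of the list.

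Among the homing ligands, Cxcl13, which follicular stroma makes to attract B cells, had 40.1, 0.450 and 44.4 CPM in Cdo1AKO 1 to 3, against 4.11, 85.4 and 47.3 CPM in control 1 to 3. Cdo1AKO 1 and 3 lay within the range of the controls, but only because control 1 was low, and Cdo1AKO 2 lay below it. In the 4 libraries both Cdo1AKO values were below both controls. Cxcl13 had 37.3 and 40.6 counts per 1000 counts of the lymph node and B cell markers without Enpp2 in Cdo1AKO 1 and 3. In control 2 and 3 it had 53.0 and 50.9. The fold change was -0.69 ± 1.44 in the 6 libraries (adjusted p = 0.886 by edgeR) and -0.66 ± 0.25 in the 4 libraries (adjusted p = 0.118). Ccl21, the ligand of Ccr7 on high endothelial venules and stroma, is annotated in several closely related copies, between which counting may have divided the reads, so the value of each copy is uncertain. The best covered copy, Ccl21a on the unplaced scaffold JH584294.1 (121048 to 121713, minus strand), had 21.6, 0 and 15.1 CPM in Cdo1AKO, against 0, 37.6 and 7.51 CPM in control libraries (-0.29 ± 1.92, adjusted p = 0.966 by edgeR). Ccl21a on chromosome 4 had 1.1, 0 and 1.32 CPM in Cdo1AKO, against 0, 0.535 and 0.107 CPM in control libraries (1.87 ± 1.41, adjusted p = 0.683 by edgeR). Both of these copies were thus at 0 in Cdo1AKO 2 and control 1, and they differed in which group held the highest library.

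Summing copies before the test was chosen after seeing the data. The 9 annotated Ccl21 copies together had 564, 0 and 477 counts in Cdo1AKO 1 to 3, against 3, 775 and 164 counts in control 1 to 3. Among them were Gm10591, Gm21541 and Gm13304, of whose 100-base stretches 39.3%, 50.3% and 51.4% occur in Ccl21a. The groups overlapped, and the log2 fold change was 0.11 ± 1.84 in the 6 libraries and 0.11 ± 0.56 in the 4 libraries (adjusted p = 0.917 by edgeR). Ccl19, the other Ccr7 ligand, could not be tested as annotated, because its chromosome 4 gene had 463, 0 and 7 counts in Cdo1AKO, against 0, 3 and 3 counts in control libraries. Its pseudogene Ccl19-ps3, all of whose 100-base stretches occur in Ccl19 as well, had 345, 1 and 499 counts in Cdo1AKO, against 1, 95 and 29 counts in control libraries. The high count of Ccl19 in Cdo1AKO 1 was thus not seen in Cdo1AKO 3, where the pseudogene carried most of the reads. The 6 Ccl19 copies included Gm2564 and the pseudogenes Ccl19-ps1, Ccl19-ps3 and Gm12407, of whose 100-base stretches 21.5% to 100% occur in Ccl19. Together the 6 copies had 902, 2 and 606 counts in Cdo1AKO, against 1, 136 and 43 counts in control libraries. That sum did not pass in the 6 libraries (3.02 ± 1.78, adjusted p = 0.608 by edgeR) and was higher in Cdo1AKO in the 4 libraries (3.03 ± 0.42, adjusted p = 0.00711).

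As a class, the 11 homing genes summed to 203, 0.936 and 155 FPKM in Cdo1AKO 1 to 3, against 3.86, 202 and 81.1 FPKM in control 1 to 3, FPKM being the deposited level per kilobase of gene. In each group the library without lymph node transcripts was near 0 and the others were far higher. The lymph node and B cell markers moved with the class, at a summed 1322, 446 and 1350 CPM in Cdo1AKO, against 333, 1953 and 1280 CPM in control libraries, with 2 of 17 markers at 0 in Cdo1AKO 2, 4 of 17 in control 1 and 0 elsewhere. Enpp2 alone made 437 of the 446 CPM in Cdo1AKO 2 and 330 of the 333 CPM in control 1. Without it the sum was near 0 in those libraries. The 37 inflammatory genes summed to 504, 260 and 527 FPKM in Cdo1AKO, against 240, 267 and 251 FPKM in control libraries, so Cdo1AKO 2 lay within the range of the controls and the other Cdo1AKO libraries above it. Much of that excess came from Ccl5 and Ccl22. Ccl5 had 4405 and 4185 counts in Cdo1AKO 1 and 3, against 98 to 1051 in control libraries. Ccl22 had 47.9 and 49.8 FPKM in Cdo1AKO 1 and 3, against 0.159 to 9.75 FPKM in control libraries. The 13 other homeostatic genes were the most even class, with 91.6, 61.4 and 88.7 FPKM in Cdo1AKO and 96.5, 82.7 and 85.3 FPKM in control libraries.

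The level of the other homeostatic class came mainly from Cxcl12 and Cxcl14. Cxcl12, made by stromal cells and needed for the retention of leukocytes and progenitors through Cxcr4, had 243, 194 and 260 CPM in Cdo1AKO 1 to 3, against 242, 251 and 252 CPM in control 1 to 3. The controls lay within the range of the Cdo1AKO libraries (-0.10 ± 0.16, adjusted p = 0.853 by edgeR). The receptor Cxcr4 had 76.0, 19.6 and 68.2 CPM in Cdo1AKO, against 4.48, 51.5 and 33.8 CPM in control libraries. Its groups overlapped through the libraries without lymph node transcripts (0.87 ± 0.87, adjusted p = 0.746 by edgeR), and it was higher in Cdo1AKO in the 4 libraries (0.75 ± 0.19, adjusted p = 0.0394). Even so, Cxcr4 had 67.6 and 59.5 counts per 1000 counts of T cell and natural killer cell markers in Cdo1AKO 1 and 3, against 114 and 127 in control 2 and 3.

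Cxcl14, a chemokine made constitutively by epithelia and by fat, had 24.1, 43.7 and 23.5 CPM in Cdo1AKO 1 to 3, against 106, 33.0 and 57.3 CPM in control 1 to 3. Only Cdo1AKO 2 reached into the range of the controls. The fold change was -1.11 ± 0.47 in the 6 libraries (adjusted p = 0.495 by edgeR). Cxcl14 was lower in Cdo1AKO in the 4 libraries (-0.93 ± 0.24, adjusted p = 0.0419) as well as with the term (-1.05 ± 0.21, adjusted p = 0.0457). Adipocyte markers moved with it, at a summed 22398 and 23633 CPM in Cdo1AKO 1 and 3, against 36471 and 44383 CPM in control 2 and 3, with 0 of 10 markers at 0 in any library and 7 of 10 lower in the 4 libraries by edgeR, against 7.7% of all genes, and their part in the result was not tested. Ccr9, the receptor for the thymus and gut chemokine Ccl25, had 12.997, 0.322 and 11.9 CPM in Cdo1AKO, against 0.307, 5.40 and 3.49 CPM in control libraries, and was higher in the 4 libraries (1.48 ± 0.24, adjusted p = 0.0107 by edgeR). The ligands Ccl25, Ccl27a on chromosome 4 and Ccl28 and the receptor Ccr10 had fold changes of -0.36 to -0.14, none of which passed. Ccr9 and these 4 genes are named outside the rule for named genes, after their values were seen, as are Ccr4, Ccr6, Cxcr6, Cxcr2, Ccl7, Ccl9, Ccl12 and Ccl24 and the untested genes in what follows.

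Of the inflammatory genes, those for T cell subsets and dendritic cells had the highest median, 1.69 over 8 tested genes, 7 of which lay above 0. Ccl22, Cx3cl1 and Ccl17 lie side by side on mm10 chromosome 8, on the plus strand, within 66.4 kb. Ccl22 (94745590 to 94751699) and Ccl17 (94810453 to 94812036) are made by dendritic cells and macrophages and attract T cells through Ccr4, and Cx3cl1 (94772009 to 94782427), or fractalkine, is a membrane-anchored ligand of Cx3cr1. All 3 neighbours were highest in Cdo1AKO 1 and 3, and of them only Cx3cl1 was also above every control in Cdo1AKO 2. The 250 bases before the RefSeq start of each are shown, from RefSeq on GRCm38.p6, plus strand, 5′ to 3′. The windows are chr8:94745434-94745683 for Ccl22, chr8:94771930-94772179 for Cx3cl1 and chr8:94810203-94810452 for Ccl17. Those of Ccl22 and Cx3cl1 end past the gene starts given above, so their last bases lie inside the annotated genes. Capitals mark matches to TTCNNNNGAA, the STAT motif, to TATAAA or to the kappaB consensus, each searched on both strands.
Ccl22: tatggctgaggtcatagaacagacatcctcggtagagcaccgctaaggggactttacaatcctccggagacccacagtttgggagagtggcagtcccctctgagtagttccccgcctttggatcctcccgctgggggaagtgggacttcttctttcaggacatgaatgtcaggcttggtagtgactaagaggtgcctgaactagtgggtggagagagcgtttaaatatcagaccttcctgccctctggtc
Cx3cl1: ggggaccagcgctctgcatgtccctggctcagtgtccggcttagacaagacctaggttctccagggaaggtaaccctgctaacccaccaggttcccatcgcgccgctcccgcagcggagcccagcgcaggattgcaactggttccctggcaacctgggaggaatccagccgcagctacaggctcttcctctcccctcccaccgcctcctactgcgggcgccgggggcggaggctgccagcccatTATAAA
Ccl17: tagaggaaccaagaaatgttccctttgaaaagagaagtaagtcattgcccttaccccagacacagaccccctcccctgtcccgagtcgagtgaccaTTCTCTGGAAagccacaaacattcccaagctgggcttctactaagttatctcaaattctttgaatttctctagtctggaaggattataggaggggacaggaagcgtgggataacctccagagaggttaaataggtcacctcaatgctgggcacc
The Ccl17 window holds 1 STAT match, TTCTCTGGAA, which starts at base -154 from the RefSeq start, the Cx3cl1 window ends in TATAAA, which starts at base -6, and the Ccl22 window has none of these letters. Of 32851 mouse windows of the same length, 5.85% hold the STAT motif, 12.4% TATAAA and 7.25% the kappaB consensus. Among 40 of the 55 symbols that have a window, 1, 11 and 10 hold them, in that order, and a match describes letters and not a site of binding.

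Ccl22 had 112, 2.06 and 116 CPM in Cdo1AKO 1 to 3, against 0.368, 22.9 and 12.5 CPM in control 1 to 3. Cdo1AKO 1 and 3 lay above every control, and Cdo1AKO 2 lay between control 1 and the other controls. The difference did not pass edgeR in the 6 libraries (2.68 ± 1.59, adjusted p = 0.609) and passed in the 4 libraries (2.68 ± 0.25, adjusted p = 0.00345) as well as with the term (2.66 ± 0.26, adjusted p = 0.0222). Ccl17 was far lower in level, at 4.25, 0.322 and 5.10 CPM in Cdo1AKO, against 0.245, 0.749 and 0.268 CPM in control libraries. The high values were again those of Cdo1AKO 1 and 3, while Cdo1AKO 2 lay within the range of the controls (2.91 ± 1.01, adjusted p = 0.424 by edgeR), and in the 4 libraries it passed (3.18 ± 0.44, adjusted p = 0.00714).

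Cx3cl1 had 10.9, 8.04 and 13.7 CPM in Cdo1AKO 1 to 3, against 3.01, 4.98 and 4.29 CPM in control 1 to 3. Every Cdo1AKO library lay above every control, including the libraries without lymph node transcripts, where the level was 8.04 CPM in Cdo1AKO 2, against 3.01 CPM in control 1. In the 6 libraries the difference of 1.41 ± 0.30 on the log2 scale gave an adjusted p of 0.309 with edgeR and of 0.00900 with DESeq2. It was 1.40 ± 0.21 in the 4 libraries (adjusted p = 0.00819), and 1.22 to 1.58 when each library in turn was left out. The authors' deposited table gives Cx3cl1 a log2 fold change of 1.41 and an adjusted p of 0.00851, the 1 call among the 55 chemokine and receptor genes with an adjusted p there, in a table that calls 1.0% of all its genes. Its receptor Cx3cr1, carried by monocytes, macrophages and cytotoxic lymphocytes, had 6.20, 1.67 and 8.51 CPM in Cdo1AKO, against 0.184, 3.58 and 1.98 CPM in control libraries. Cdo1AKO 2 lay inside the range of the controls, and the difference did not pass (1.5 ± 0.98, adjusted p = 0.643 by edgeR) except in the 4 libraries (1.39 ± 0.33, adjusted p = 0.0324).

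Other tested genes around these 3 had log2 fold changes of -0.64 to 0.63 in the 4 libraries, except Adgrg5. Of the 11 other tested genes within 150 kb, 2 passed in the 4 libraries, where 7.65% of all genes were higher and 7.7% lower. Both are named after their values were seen. Adgrg5, an adhesion receptor gene, had 53.5 and 54.5 CPM in Cdo1AKO 1 and 3, against 18.99 and 11.96 CPM in control 2 and 3 (1.80 ± 0.20, adjusted p = 0.00467 by edgeR), and Coq9, of coenzyme Q synthesis, was lower (-0.64 ± 0.14, adjusted p = 0.0294 by edgeR). Ciapin1, the next tested gene after Ccl17, had a log2 fold change of 0.10 ± 0.11. Ccdc102a, also named after its values were seen, had 17.8, 24.3 and 17.6 CPM in Cdo1AKO 1 to 3, against 11.8, 13.7 and 9.17 CPM in control 1 to 3. Its difference did not pass in the 6 libraries (0.78 ± 0.23, adjusted p = 0.370 by edgeR). Ciapin1 and Ccdc102a were higher without overlap in the 6 libraries, as were 8.87% of all genes tested.

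**Figure D3:**
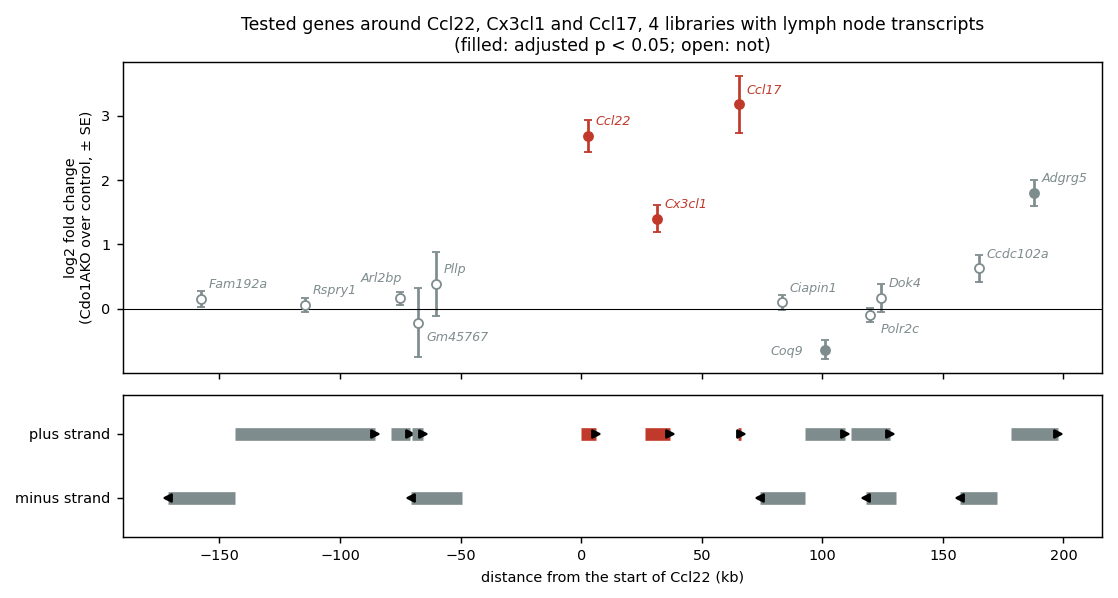
Upper panel: log2 fold change ± SE, Cdo1AKO over control in the 4 libraries with lymph node transcripts, of the 14 tested genes around Ccl22, Cx3cl1 and Ccl17 on chromosome 8 against distance from the start of Ccl22 in kb, filled where adjusted p was under 0.05. Lower panel: gene bodies by strand. The chemokine genes (red) stand at 2.68, 1.40 and 3.18, and the others lie between -0.64 and 0.63 except Adgrg5 at 1.80.

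Cxcl16, which anchors and attracts T cells and natural killer T cells through Cxcr6, had 59.5, 8.36 and 54.6 CPM in Cdo1AKO 1 to 3, against 6.87, 19.3 and 11.2 CPM in control 1 to 3. Cdo1AKO 2 lay among the controls and the other Cdo1AKO libraries above them (1.71 ± 0.75, adjusted p = 0.505 by edgeR), and the gene was higher in the 4 libraries (1.90 ± 0.23, adjusted p = 0.00553). Cxcr6 had 20.3, 0.386 and 18.4 CPM in Cdo1AKO, against 1.47, 6.90 and 3.91 CPM in control libraries (1.84 ± 0.26 in the 4 libraries, adjusted p = 0.00719 by edgeR). Ccr8, a receptor of tissue regulatory T cells, had 3.65, 0 and 3.29 CPM in Cdo1AKO, against 0.245, 0.749 and 0.536 CPM in control libraries. It was the lowest in Cdo1AKO 2 and the highest in Cdo1AKO 1 and 3, and passed in the 4 libraries (2.42 ± 0.35, adjusted p = 0.00785 by edgeR) but not in the 6 (2.16 ± 1.28, adjusted p = 0.608). Ccr4, the receptor of Ccl17 and Ccl22, had 4.05, 0.0643 and 5.27 CPM in Cdo1AKO, against 0, 2.03 and 1.23 CPM in control libraries (1.5 ± 0.34 in the 4 libraries, adjusted p = 0.0282 by edgeR). Xcl1, which cytotoxic lymphocytes release to draw cross-presenting dendritic cells, had 1.6, 0.836 and 1.37 CPM in Cdo1AKO, against 0.491, 0.963 and 0.536 CPM in control libraries. Cdo1AKO 2 was below control 2, and the difference passed neither in the 6 libraries (0.93 ± 0.45, adjusted p = 0.541 by edgeR) nor in the 4 (adjusted p = 0.172).

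Ccr6, which is high on B cells and Th17 cells, behaved otherwise. It had 15.6, 0 and 14.4 CPM in Cdo1AKO 1 to 3, against 0.0614, 20.8 and 13.1 CPM in control 1 to 3, so that the groups overlapped in the 6 and in the 4 libraries (-0.18 ± 0.22 in the 4, adjusted p = 0.633 by edgeR). Like Cxcr5, it stood in a near constant ratio to the lymph node and B cell markers without Enpp2, with 14.6 and 13.2 counts per 1000 in Cdo1AKO 1 and 3, against 12.9 and 14.1 in control 2 and 3.

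Counts per 1000 counts of the T cell and natural killer cell markers divided the T cell and dendritic cell genes differently from their CPM. Of the receptors in the 4 libraries, Cxcr6 had 18.1 and 16.1 in Cdo1AKO 1 and 3, against 15.2 and 14.7 in control 2 and 3. Ccr4 had 3.6 and 4.6 in Cdo1AKO, against 4.49 and 4.64 in control libraries, and Ccr9 had 11.6 and 10.4 in Cdo1AKO, against 11.9 and 13.1 in control libraries. Cxcr3 had 14.1 and 13.4 in Cdo1AKO, against 18.4 and 17.0 in control libraries. On this scale Cxcr3 lay lower in Cdo1AKO, Ccr9 lay lower by little, Ccr4 overlapped and Cxcr6 lay slightly higher. Ccr8, with 3.24 and 2.87 in Cdo1AKO, against 1.65 and 2.02 in control libraries, also lay higher, as did Ccr7, with 132 and 116, against 96.7 and 101. Of the 5 ligands set on this scale, 4 lay higher in Cdo1AKO in the 4 libraries. Ccl22 had 99.3 and 101 in Cdo1AKO, against 50.6 and 47.0 in control libraries, and Ccl17 had 3.78 and 4.45, against 1.65 and 1.01. Ccl5 had 196 and 200 in Cdo1AKO, against 124 and 135 in control libraries, and Cxcl16 had 52.9 and 47.6, against 42.5 and 42.0. Cx3cl1 did not lie higher there, with 9.73 and 11.9 in Cdo1AKO, against 10.99 and 16.2 in control libraries, although its CPM was. In the libraries without lymph node transcripts the order of Cx3cl1 and Ccl5 was the reverse. Cx3cl1 had 291 in Cdo1AKO 2, against 105 in control 1, and Ccl5 had 193, against 210. Dendritic cell markers moved with the CPM of these ligands in the 4 libraries. They summed to 211 and 205 CPM in Cdo1AKO 1 and 3, against 118 and 95.9 CPM in control 2 and 3, with 0 of 8 markers at 0 in any library. By edgeR 5 of 8 were higher in the 4 libraries, against 7.65% of all genes, and 0 of 8 in the 6. The ratios are descriptions without a test, and they were chosen after the values were seen.

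**Figure D4:**
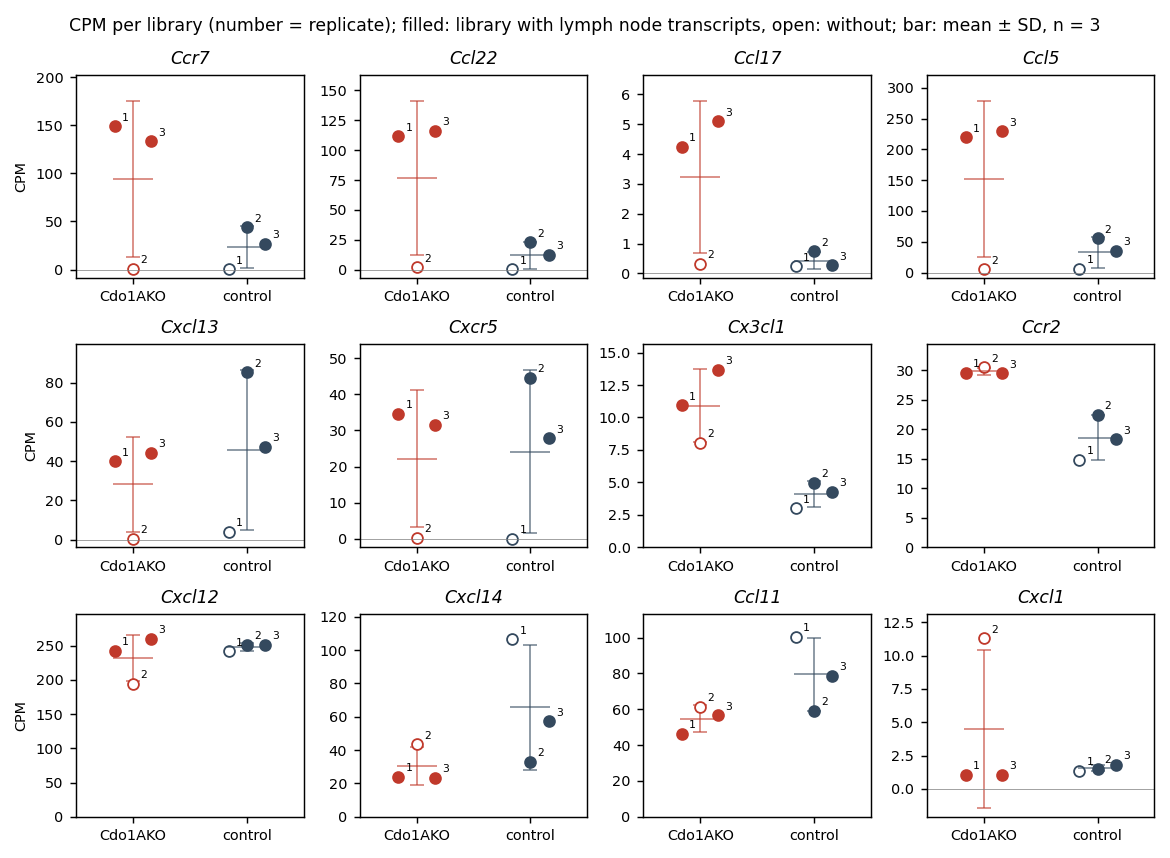
CPM of 12 chemokine and receptor genes in each library, Cdo1AKO (red) left of control (blue), numbered by replicate, with the mean ± SD of the 3 libraries; open points are Cdo1AKO 2 and control 1, the libraries without lymph node transcripts. Cx3cl1 and Ccr2 do not overlap between the groups, Ccr7, Ccl22, Ccl17 and Ccl5 are high in Cdo1AKO 1 and 3, and Cxcl1 is high in Cdo1AKO 2.

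The interferon-induced ligands passed neither in the 6 nor in the 4 libraries. Cxcl9, which with Cxcl10 attracts Cxcr3-bearing effector T cells, had 56.1, 48.4 and 53.0 CPM in Cdo1AKO 1 to 3, against 66.3, 45.4 and 61.4 CPM in control 1 to 3. Its Cdo1AKO values lay within the range of the controls (-0.14 ± 0.18, adjusted p = 0.810 by edgeR). Cxcl10 had 5.95, 4.70 and 6.53 CPM in Cdo1AKO, against 8.59, 8.13 and 6.65 CPM in control libraries. Each Cdo1AKO library was below each control, by little for Cdo1AKO 3 and control 3, and the difference did not pass (-0.44 ± 0.23, adjusted p = 0.567 by edgeR). It was the 1 tested gene of the 41 that lay lower without overlap, against 9.73% of all genes tested. The receptor Cxcr3 had 15.9, 1.48 and 15.4 CPM in Cdo1AKO, against 1.72, 8.35 and 4.50 CPM in control libraries, and passed in the 4 libraries (1.28 ± 0.27, adjusted p = 0.0246 by edgeR) but not in the 6 (1.17 ± 0.92, adjusted p = 0.687). The receptor was thus high in Cdo1AKO 1 and 3, where T cell markers were also high, and its ligands were not.

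Among the genes for monocytes, macrophages and eosinophils, Ccl5 had the highest mean level per length of all 61 genes, 95.5 FPKM, followed by Ccl11 at 61.7 and Ccl6 at 41.9 FPKM. Ccl5, which T cells and natural killer cells make and which attracts monocytes and T cells, had 220, 5.34 and 230 CPM in Cdo1AKO 1 to 3, against 6.01, 56.2 and 35.8 CPM in control 1 to 3. It was lowest of all in Cdo1AKO 2. The difference passed in the 4 libraries (2.28 ± 0.20, adjusted p = 0.00328 by edgeR) and not in the 6 (2.21 ± 1.31, adjusted p = 0.609).

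Ccr2, the receptor by which inflammatory monocytes leave bone marrow and enter tissue, had 29.6, 30.6 and 29.5 CPM in Cdo1AKO 1 to 3, against 14.8, 22.5 and 18.3 CPM in control 1 to 3. The Cdo1AKO libraries were nearly equal and all lay above the controls. Ccr2 and Cx3cl1 were the 2 of 41 tested genes that were higher without overlap, against 8.87% of all genes tested. The fold change was 0.69 ± 0.19 (adjusted p = 0.359 by edgeR, 0.153 by DESeq2) in the 6 libraries and 0.53 ± 0.14 (adjusted p = 0.0441 by edgeR) in the 4 libraries. Macrophage and monocyte markers moved with Ccr2, at a summed 366, 429 and 376 CPM in Cdo1AKO, against 323, 271 and 296 CPM in control libraries, with 0 of 12 markers at 0 in any library and their part in the result not tested. In the 6 libraries 10 of the 12 lay above 0 and 0 passed edgeR. In the 4 libraries 3 were higher, against 7.65% of all genes, and 1 lower, against 7.7%. The higher ones were Cd68, Tyrobp and Ly6c2. Unlike Ccr2, Ly6c2 was low in the libraries without lymph node transcripts, at 3.15 CPM in Cdo1AKO 2 and 2.58 CPM in control 1. The lower one was Cd14, the lipopolysaccharide co-receptor of monocytes, with 12.6, 13.8 and 10.2 CPM in Cdo1AKO, against 37.9, 18.1 and 30.1 CPM in control libraries (-1.08 ± 0.25 in the 4 libraries, adjusted p = 0.0318 by edgeR).

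Ccl2 and Ccl7, ligands of Ccr2, were ordered otherwise. Ccl2, the main monocyte attractant of inflamed fat, had 3.30, 19.04 and 3.84 CPM in Cdo1AKO 1 to 3, against 4.23, 7.54 and 5.58 CPM in control 1 to 3. Cdo1AKO 2 was the highest of all libraries and the other Cdo1AKO libraries were the lowest. The fold change was 0.59 ± 0.72 in the 6 libraries (adjusted p = 0.797 by edgeR) and -0.88 ± 0.25 in the 4 libraries (adjusted p = 0.0560). Ccl7, a further Ccr2 ligand that lies near it on chromosome 11, had the same order of libraries at its ends, with 4.10, 14.3 and 4.89 CPM in Cdo1AKO, against 6.26, 7.76 and 7.13 CPM in control libraries (0.13 ± 0.50 in the 6 libraries, -0.73 ± 0.21 in the 4). Ccl8, another gene for monocytes, macrophages and eosinophils, had 15.7, 10.3 and 14.6 CPM in Cdo1AKO, against 5.22, 12.3 and 7.72 CPM in control libraries. Here Cdo1AKO 2 was below control 2 (0.69 ± 0.35, adjusted p = 0.567 by edgeR). Ccl12 had 1.03 to 1.87 CPM in Cdo1AKO and 0.802 to 1.17 CPM in control libraries and did not pass.

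Ccl11, or eotaxin, which attracts eosinophils through Ccr3, had 46.4, 61.4 and 56.5 CPM in Cdo1AKO 1 to 3, against 100.4, 59.3 and 78.7 CPM in control 1 to 3. Only Cdo1AKO 2 and control 2 were out of order, and the difference did not pass (-0.54 ± 0.23, adjusted p = 0.493 by edgeR; -0.43 ± 0.16 in the 4 libraries, adjusted p = 0.121). Ccr3 itself had 10 counts in the 6 libraries together. The eosinophil markers Siglecf and Epx were at 0 to 0.220 CPM in every library. Prg2, which encodes an eosinophil granule protein, had 0.350, 0.772 and 0.165 CPM in Cdo1AKO, against 0.245, 1.07 and 1.18 CPM in control libraries, and was lower in the 4 libraries (-2.09 ± 0.53, adjusted p = 0.0402 by edgeR). Ccl6, a mouse ligand of Ccr1 that macrophages make, had 54.3, 113 and 63.9 CPM in Cdo1AKO, against 101, 49.8 and 71.4 CPM in control libraries. The libraries without lymph node transcripts held the 2 highest values (0.06 ± 0.37, adjusted p = 0.963 by edgeR). Ccl9, which lies near it on chromosome 11 and also acts on Ccr1 in the mouse, had 45.2, 95.7 and 41.8 CPM in Cdo1AKO, against 61.3, 43.5 and 50.9 CPM in control libraries (0.23 ± 0.35, adjusted p = 0.838 by edgeR).

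Of the neutrophil genes, Cxcl1, which tissue cells make to attract neutrophils through Cxcr2, had 1.05, 11.3 and 1.04 CPM in Cdo1AKO 1 to 3, against 1.35, 1.498 and 1.82 CPM in control 1 to 3. The Cdo1AKO 2 library alone was high, and the other Cdo1AKO libraries were below every control. The fold change was 1.51 ± 0.99 in the 6 libraries (adjusted p = 0.645 by edgeR) and -0.57 without Cdo1AKO 2. The window before its RefSeq start on chromosome 5, chr5:90890995-90891244, plus strand, GRCm38.p6, is shown as the example of a window with kappaB letters, which are in capitals.
Cxcl1: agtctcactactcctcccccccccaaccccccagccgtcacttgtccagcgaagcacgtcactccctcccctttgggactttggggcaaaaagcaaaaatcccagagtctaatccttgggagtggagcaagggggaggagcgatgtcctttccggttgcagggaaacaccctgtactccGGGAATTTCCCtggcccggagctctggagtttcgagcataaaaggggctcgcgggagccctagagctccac
The capitals cover 2 overlapping matches. Cxcr2 had 1.95, 0 and 2.09 CPM in Cdo1AKO, against 0.123, 5.83 and 4.08 CPM in control libraries. It was lower in Cdo1AKO in the 4 libraries (-1.30 ± 0.29, adjusted p = 0.0287 by edgeR) but not in the 6 (-1.30 ± 1.43, adjusted p = 0.771). Neutrophil and eosinophil markers summed to 8.40, 19.8 and 7.41 CPM in Cdo1AKO, against 7.06, 12.3 and 10.9 CPM in control libraries. Of 9 such markers, 3 or 4 were at 0 in Cdo1AKO and 1 to 3 in control libraries, and Ly6g, a defining neutrophil marker, was at 0 in every library. S100a8 alone made 16.1 of the 19.8 CPM in Cdo1AKO 2. Like Cxcr2, 3 of the 5 tested markers were lower in the 4 libraries, against 7.7% of all genes, and 0 were higher, and their part in the result was not tested. S100a9, a calcium-binding protein of neutrophils, had 0.150, 0.129 and 0 CPM in Cdo1AKO, against 1.96, 2.25 and 1.82 CPM in control libraries (adjusted p = 0.248 by edgeR in the 6 libraries and 0.0100 in the 4). Retnlg, another neutrophil gene, was at 0 in Cdo1AKO 1 and 3, against 0.802 and 0.590 CPM in control 2 and 3 (adjusted p = 0.0181 by edgeR in the 4 libraries).

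Cdo1AKO 2 was the highest of the 6 libraries for 9 of the 41 tested genes, against 31.7% of all genes. All 9 were among the 28 tested inflammatory genes, Ccl2, Ccl7, Ccl24, Ccr2 and Cxcl1 among them. That is 32.1% of the class, close to the share of all genes. Cdo1AKO 2 was the lowest for 13 of the 41, against 24.9% of all genes. Ccl24, an eotaxin, had 2.55, 7.21 and 3.18 CPM in Cdo1AKO 1 to 3, against 2.64, 3.85 and 2.84 CPM in control 1 to 3. Without Cdo1AKO 2 its fold change and those of Ccl2, Ccl7, Ccl9 and Cxcl1 turned below 0, to -0.12 for Ccl24, -0.70 for Ccl2, -0.65 for Ccl7, -0.25 for Ccl9 and -0.57 for Cxcl1. Between the 4 remaining libraries with lymph node transcripts, 18 of the 41 genes were higher and 8 lower without overlap, against 31.4% and 30.6% of all genes.

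Genes downstream of the receptors were taken from a list of 26 signalling genes. In the 6 libraries 0 of them passed edgeR, 25 lay above 0, and the median log2 fold change was 0.50 against 0.06 over all genes. In the 4 libraries 11 were higher, against 7.65% of all genes, and 0 lower. The T cell and natural killer cell markers, of which 13 of 15 were higher there, moved with them, and their part in the result was not tested. Rac2, a GTPase of blood cells named after its values were seen, had 281, 14.6 and 258 CPM in Cdo1AKO, against 7.92, 167 and 106 CPM in control libraries, and was thus lowest in the libraries without lymph node transcripts (0.98 ± 0.20 in the 4 libraries, adjusted p = 0.0229 by edgeR). Gnai2, the inhibitory G protein subunit through which the receptors signal, had 471, 515 and 425 CPM in Cdo1AKO 1 to 3, against 298, 369 and 354 CPM in control 1 to 3. Every Cdo1AKO library was above every control (0.47 ± 0.17, adjusted p = 0.440 by edgeR). Grk3, a kinase that desensitises receptors, had 55.4, 19.9 and 57.7 CPM in Cdo1AKO, against 8.04, 24.1 and 14.9 CPM in control libraries (1.5 ± 0.54, adjusted p = 0.431 by edgeR; 1.53 ± 0.21 in the 4 libraries, adjusted p = 0.00679). Rgs2, which shortens G protein signals, was the exception in direction, with 20.5, 17.0 and 23.8 CPM in Cdo1AKO, against 93.5, 19.7 and 55.5 CPM in control libraries (-1.46 ± 0.53, adjusted p = 0.433 by edgeR).

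Atypical receptors, which bind chemokines without G protein signalling, and relatives outside the name rule gave 0 of 11 past edgeR in the 6 libraries, 6 above and 5 below 0. The smallest p-values were those of Cmklr1, the chemerin receptor (-0.64 ± 0.30, adjusted p = 0.532 by edgeR), Ccrl2 (0.42 ± 0.23, adjusted p = 0.588) and Ppbp (-1.17 ± 0.71, adjusted p = 0.617). Rarres2, which encodes chemerin and is named after its value was seen, was the 1 called in the 4 libraries, lower in Cdo1AKO (-0.45 ± 0.10, adjusted p = 0.0290 by edgeR).

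Of the 20 untested genes, 18 ligands and 2 receptors, 2 had 0 counts in every library (Cxcl15 and the Ccl27a copy on scaffold JH584294.1) and 12 had 1 to 10 counts in all. The other 6 had more. Besides Ccl19, Ccl3, a ligand of Ccr1, had 9, 15 and 9 counts in Cdo1AKO 1 to 3, against 4, 19 and 8 counts in control 1 to 3, and Cxcl2, a ligand of Cxcr2, had 3, 14 and 9 counts, against 2, 13 and 7 counts. Ccl1, the ligand of Ccr8, had 10, 2 and 18 counts in Cdo1AKO, against 1, 4 and 1 counts in control libraries. Ccl1 was high where Ccr8 was, in Cdo1AKO 1 and 3. Ccl21c on scaffold GL456350.1 had 37 counts and Cxcr1 had 11 in the 6 libraries together. These 5 genes had too few counts for the edgeR test in the 6 libraries, so whether they differed was not tested there.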

How the data were processed

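Per the file headers, the authors deposited a table of raw counts and FPKM for each gene in the 6 libraries. Their own test, per the file headers, stands beside these as log2 fold change, p-value and adjusted p-value. The build mm10 and, with no role stated, DESeq2 1.20.0, featureCounts 1.5.0-p3 and HISAT2 2.0.5 are named in the submitters' processing notes. Whether counting used strand is not stated there, and overlapping or antisense genes can therefore share reads. Groups came from the sample titles.

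The quasi-likelihood test of edgeR 4.0.16 in R 4.3.3, with group as its 1 term, was run on counts kept by filterByExpr after TMM scaling. Adjustment was over all genes tested, at a threshold of 0.05. The fit was tested on simulated data with 200 changed genes. SE is the log2 fold change over the square root of the F statistic, and SD is over 3 libraries. FPKM served only to rank levels between genes and for sums by class. A library was said to hold lymph node transcripts where the markers' median CPM was above 5, and those 4 libraries were also fitted alone or through a term. The members, classes, gene lists and tests were chosen with earlier results of these data known. Values in every library are given for the tested homing genes, the 14 other genes with the smallest p, the 6 with the highest FPKM, and Cxcl12, Cxcr4, Ccl2, Ccr2, Cxcl9, Cxcl10, Cxcr3 and Ccl5. A tested gene is not reported here by name and is counted with its class. From each related list the 3 genes with the smallest p are named. Alternatives were DESeq2 1.42.0, limma-voom (limma 3.58.1), other filters and scaling factors, robust estimation and a replicate block. Further alternatives left out each library or summed related copies. Replicate numbers did not pair the libraries.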

Additional observations from a re-analysis of the deposited data

How the results depend on the processing

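No alternative that kept all 6 libraries and group as the only term changed a count of genes called, except DESeq2. DESeq2 called 1 gene, an inflammatory one, where it called 1.48% of all genes. With the lymph node term 3 genes were higher and 1 lower, against 2.26% of all genes higher and 1.87% lower. Of these, 1 homing and 2 inflammatory genes were higher and 1 other homeostatic gene was lower. Of the 26 signalling genes, 5 were higher with the term. In the 4 libraries 14 were higher and 2 lower, against 7.65% of all genes higher and 7.7% lower. By class these were 1 homing, 2 other homeostatic and 11 inflammatory genes higher, 1 other homeostatic and 1 inflammatory gene lower, 11 signalling genes higher and 1 atypical relative lower. Leaving out each library called 0 genes in every class and 0 of all genes tested. Fold changes turned sign in the 4 libraries for Ccl24 (-0.23), Ccl6 (-0.041), Ccl9 (-0.12), Cxcl9 (0.027), Cxcl1 (-0.67), Ccl2 (-0.88) and Ccl7 (-0.73), and for Ccl7 with the term (-0.089). Limma-voom turned Ccl21a on the scaffold (0.18), Cxcr5 (1.13) and Ccl7 (-0.14), and library totals without factors turned Cxcr5 (0.015) and Cxcl12 (0.0035) and moved the median of all genes from 0.06 to 0.13. Summed copies turned Ccl21a (0.11, and 0.11 in the 4 libraries). With each library left out in turn the ranges that crossed 0 were -0.12 to 0.74 for Ccl24, -0.98 to 1.70 for Ccl21a on the scaffold, -1.23 to 0.13 for Cxcl13, -0.32 to 0.34 for Ccl6, -0.25 to 0.44 for Ccl9, -0.71 to 0.66 for Cxcr5, -0.76 to 0.59 for Ccr6, -0.57 to 1.98 for Cxcl1, -0.70 to 0.98 for Ccl2, -0.65 to 0.44 for Ccl7 and -0.18 to 0.018 for Cxcl12. Of these sign changes 10 came without Cdo1AKO 2 and 5 without control 2. The cause of these changes was not tested. The replicate numbers did not pair the libraries (r = -0.66, -0.67 and 0.45 for numbers 1 to 3). The replicate block called 0 genes and turned Ccl21a on the scaffold (0.91), Cxcr5 (0.20), Ccr6 (0.081) and Ccl7 (-0.10). Genes with few counts in 2 or 3 libraries, such as Ccl17 and Ccr8, are limited by depth.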
